A study of Mus musculus with 4 samples.

Results

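The nuclear-encoded subunits of the respiratory chain were followed in 4 RNA-seq libraries of CD4 T cells. The members were chosen by gene symbol alone: rows starting with Ndufa, Ndufb, Ndufc, Ndufs, Ndufv, Uqcr, Cox4, Cox5, Cox6, Cox7, Cox8 or Atp5, together with Sdha, Sdhb, Sdhc and Sdhd, without pseudogene symbols and without the Ndufaf assembly factors. This rule took 82 of the 16230 genes in the table, with 38 in complex I, 4 in complex II, 8 in complex III, 15 in complex IV and 17 in complex V. The symbol rule leaves out Cyc1, a complex III subunit, and takes in Atp5s and Atp5sl, whose names recall the ATP synthase but which are not among its structural subunits, and Cox7a2l, which acts in supercomplex assembly. Cox4i2, Cox7b2 and Cox8c, and the subunits encoded in mitochondrial DNA, were not analysed here.

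All 4 libraries came from CD3+CD4+ cells sorted from the spleens of colitic Rag-/- mice, which cannot make T or B cells of their own but keep myeloid, erythroid and natural killer cells. Naive CD4 T cells had been injected into these hosts 8 weeks before. In 2 libraries (controls 1 and 2) the donor genotype was ERαfl/fl, with loxP-flanked alleles of Esr1, the estrogen receptor α gene. In the other 2 (called deficient 1 and deficient 2 after their label) it was CD4CreERαfl/fl, in which Cre under Cd4 control is meant to delete the flanked part in cells of the T lineage. The labels give no age and name no individual mice, so each p-value measures only the spread among these 4 libraries, which may be technical.

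The respiratory chain passes electrons from NADH (complex I) and succinate (complex II) through ubiquinone, complex III and cytochrome c to oxygen at complex IV. Complexes I, III and IV pump protons across the inner mitochondrial membrane, and complex V, the ATP synthase, uses the returning protons to make ATP. T cells raise their use of this chain when they are activated and rely on it as memory cells, and nuclear genes for its subunits are known targets of the transcription factors NRF1 (nuclear respiratory factor), GABPA of the ETS family, and YY1.

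Promoter sequence shows what some of these subunits share that their symbols do not. RefSeq promoters on GRCm38.p6, running from 250 bases before to 50 after the start site, were matched for 69 members. Letters were searched on both strands. The NRF1 palindrome, the run of 10 bases in capitals in the first 4 stretches printed here, was found in 5 members (7.25%), against 1.93% of the 12645 table genes with a promoter. The ETS letters CCGGAAG were found in 16 members (23.2%), against 17.2% of table genes, and the YY1 letters AAGATGGC in 11 members (15.9%), against 4.65%. By promoter, these shares were 6.67%, 21.3% and 16% of the members' 75 promoters and 0.971%, 8.86% and 2.75% of all 32851 promoters. All 11 members with the YY1 letters belonged to complexes I and V, with 7 of 33 and 4 of 16 members with a promoter. Complexes II, III and IV had only 3, 5 and 12 members with a promoter. At least 1 of the 3 letter strings stood in 29 members, and 40 had none. A match describes the letters and does not show a bound site. The stretches of 4 of the 5 members with the palindrome are shown, and those of Atp5j because it holds both the ETS and the YY1 letters and its groups did not overlap. Capitals mark the searched letters. The Atp5j stretches lie before a start site inside the span of the gene. All stretches printed except that of Ndufa11 overlap an annotated exon on either strand. Each is 5′ to 3′ on the strand of its gene, which is the plus strand for Ndufa11 and the minus strand for the others.
Ndufa11, chr17:56717692-56717721: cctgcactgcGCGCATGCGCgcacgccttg
Cox6a1, chr5:115349101-115349130: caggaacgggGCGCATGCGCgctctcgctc
Atp5g2, chr15:102671070-102671099: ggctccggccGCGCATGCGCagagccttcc
Atp5k, chr5:108434430-108434459: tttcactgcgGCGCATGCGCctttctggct
Atp5j, chr16:84835021-84835047, ETS: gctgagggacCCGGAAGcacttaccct
Atp5j, chr16:84835047-84835074, YY1: aagtgtaggaAAGATGGCggagtcttag

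Several facts of the libraries bear on every value. Depth was estimated from the steps between low FPKM values (fragments scaled to transcript length and library total) at 509000 to 708000 fragments per library, lower in both deficient libraries. Esr1 was listed at 0 in control 2 and deficient 1, with 0.23 FPKM in control 1 and 1.96 FPKM in deficient 2, so its level does not check the labels. The summed FPKM of 15 T cell marker genes was 1793 and 1431 in controls 1 and 2. It was 434 and 359.5 in deficient 1 and 2. All 15 were lower without overlap, against 25.7% of all tested genes. The 15 macrophage and monocyte markers summed to 104 and 496 FPKM in the controls and 2779 and 3283 FPKM in deficient 1 and 2. All 15 of these were higher without overlap, against 23.2% of all tested genes, and Adgre1, Cd14 and Fcgr1 were listed at 0 in control 1. The 11 erythroid markers summed to 224 FPKM in control 1 and 5131 to 8227 FPKM in the other 3 libraries, with Hba-a2 listed at 0 in control 1. The 9 neutrophil markers summed to 1818 and 4102 FPKM in the controls and 5399.7 and 7469.6 FPKM in deficient 1 and 2. Natural killer markers (5 genes) summed to 2.24, 23.5, 73.2 and 145 FPKM and dendritic markers (6 genes) to 3.14, 58.8, 168 and 184 FPKM in the same order. The 3 B cell markers in the table summed to at most 11.2 FPKM. These marker lists were chosen with earlier results of these data known. The part of these other cells in the subunit values was not tested, and fewer cells of a type and less RNA per cell cannot be told apart.

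No subunit passed the test in limma on the deposited scale without weights, in either direction. In limma on log2(FPKM + 1), 7 of 12896 tested genes had an adjusted p under 0.05 (0.0543%), 2 higher (0.0155%) and 5 lower (0.0388%), and 0 of the 81 tested members did. The smallest adjusted p of a member was 0.152, for Cox6a2. At an unadjusted p under 0.05 there were 2 members higher (2.47%, Cox6a2 and Ndufa8), against 9.1% of all tested genes. There were 10 lower (12.4%, Cox8a, Atp5g2, Atp5j, Ndufa5, Atp5j2, Ndufb9, Ndufab1, Atp5g1, Atp5b and Ndufb11), against 6.8%. With voom weights on estimated fragments, an alternative added after the data were seen, 139 of 6578 genes were called higher (2.11%) and 50 lower (0.76%), and 1 of 58 members was called, Cox6a2, higher.

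Across the 82 members the median log2 fold change was -0.29, against -0.07 over all tested genes, and 51 members had a lower mean in the deficient libraries (62.2%, against 53.6%). The groups did not overlap for 7 members with higher values (8.54%, against 23.2% of tested genes) and 21 with lower values (25.6%, against 25.7%). The share without overlap in the lower direction was thus near that of all genes. The median absolute difference was 0.46 between the group means and 0.58 between libraries of 1 group, against 0.55 and 0.49 over all tested genes. A mean of 2 libraries varies less than a single library, so each pair of values is read only against that of all genes. Deficient 1 was the lowest library for 39 members (47.6%, against 32.4% of tested genes) and control 2 the highest for 33 (40.2%, against 23.4%). Without deficient 1 the members' median was -0.019, without deficient 2 it was -0.57, and without controls 1 and 2 in turn it was -0.44 and -0.14. Of the 82, 36 members kept the sign of their difference whichever library was left out.

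**Figure D1:**
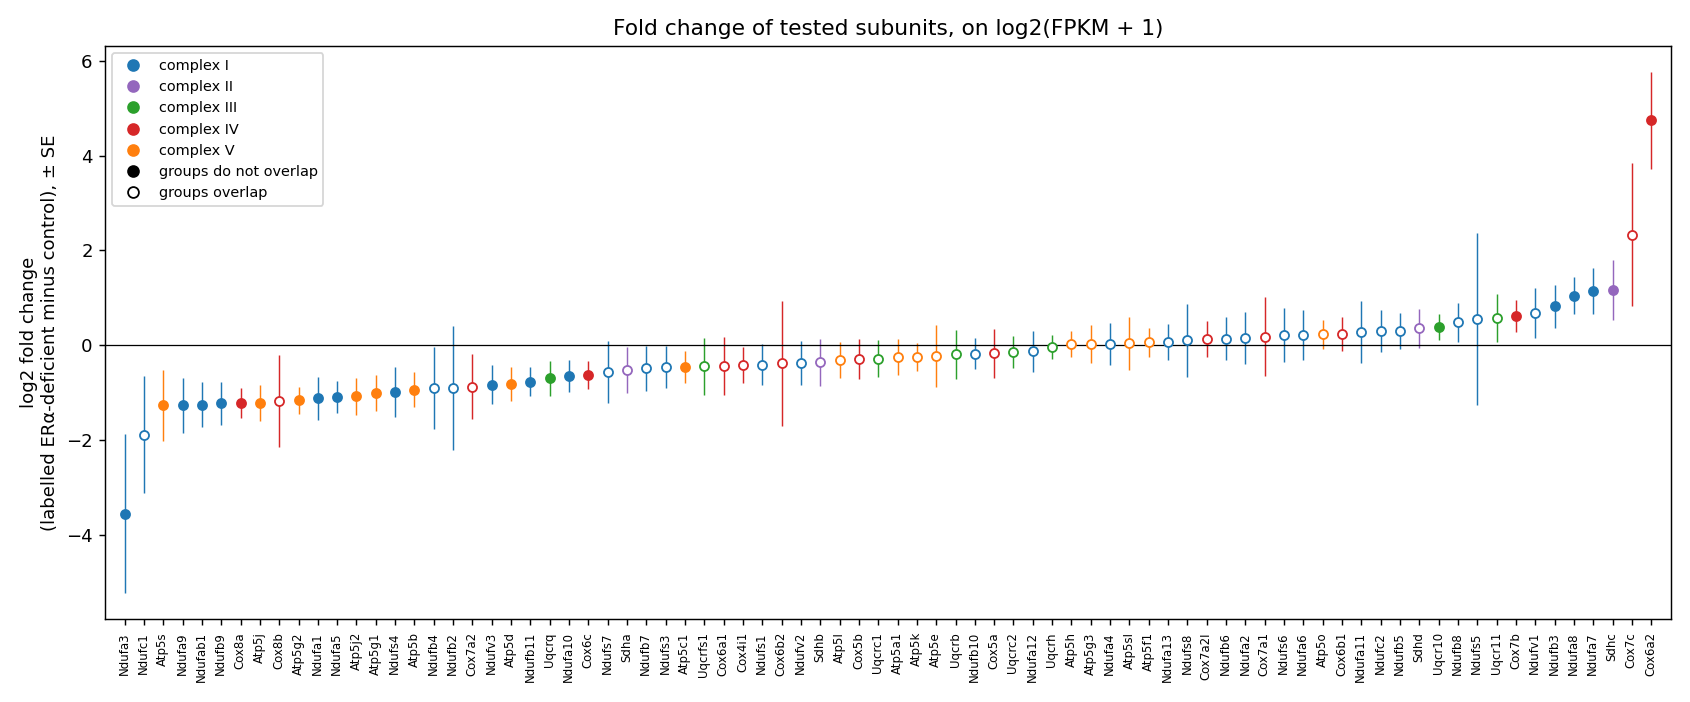
Log2 fold change of 80 of the 81 tested subunits on log2(FPKM + 1), libraries labelled ERα-deficient minus control, with bars of 1 standard error and colours for complexes I to V; filled points mark subunits whose groups do not overlap. Apart from Ndufa3, Ndufc1 and Cox7c, which have a value listed at 0, and Cox6a2 at 4.74, the points lie between -1.27 (Atp5s) and 1.16 (Sdhc).

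Levels also differed between libraries of 1 group in the same direction for most subunits. Control 2 was above control 1 for 55 of 82 members (67.1%, against 50.2% of tested genes), with a median difference of 0.34 on the log2 scale. Deficient 2 was above deficient 1, also for 55 members (67.1%, against 54.2%), with a median difference of 0.32. The members' FPKM summed to 3142 and 4010.3 in controls 1 and 2 and to 3459.6 and 3748 in deficient 1 and 2, which was 0.707%, 0.892%, 0.774% and 0.832% of each library's sum.

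**Figure D2:**
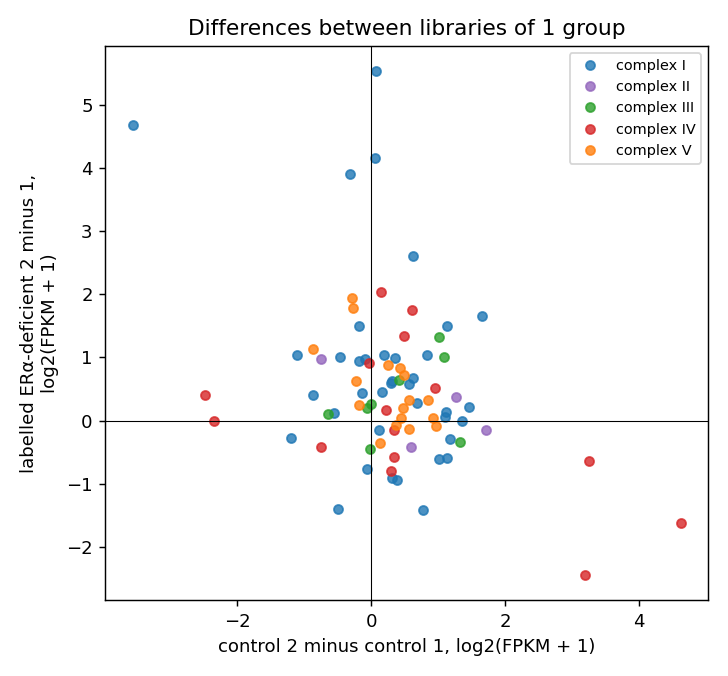
Difference between the libraries of each group for every subunit, control 2 minus control 1 on the horizontal axis and deficient 2 minus deficient 1 on the vertical axis, both on log2(FPKM + 1), coloured by complex. Points to the right of 0 are the 55 subunits higher in control 2, and points above 0 are the 55 higher in deficient 2.

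Short transcripts at this depth limit what each value can show. The members' median transcript length was 764 bases (315 to 4715), against 2807.5 bases over all genes, and a fragment on 500 bases was worth 3.07 to 4.27 FPKM. The upper limit that a count of 0 allows, 3 fragments, was 9.21 to 12.8 FPKM at that length, for counting error only. Over the 66 members with 1 annotated transcript, the median was 14.6 estimated fragments per library, and 21 of them had a median under 10. Of the members, 14 share at least 100 bases at 95% identity or more with another gene of the table, and 22 have exons that overlap one. The sources used here do not say how strand was handled, and without strand the fragments of overlapping genes cannot be told apart. Over the 56 members with neither feature the median log2 fold change was -0.30.

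The direction of the members' differences also rests on what the libraries are scaled to. FPKM sets each library against its own total. Scaling instead to the 15 T cell markers, which were themselves lower in the deficient libraries, moved the median of all tested genes by 2.03 on the log2 scale. Under it 64 of 80 tested members were called higher in limma (80.0%, against 66.4% of all genes) and 0 lower (against 0.248%). Relative to that shift the members' median was -0.015. Each library is divided by 1 factor, which on log2(FPKM + 1) moves high genes more than low ones. The median of the mean levels was 28.4 FPKM for the members and 7.92 FPKM for all tested genes. The value of -0.015 thus does not measure a change relative to other genes. All differences of single members are given on the FPKM scale as deposited.

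**Figure D3:**
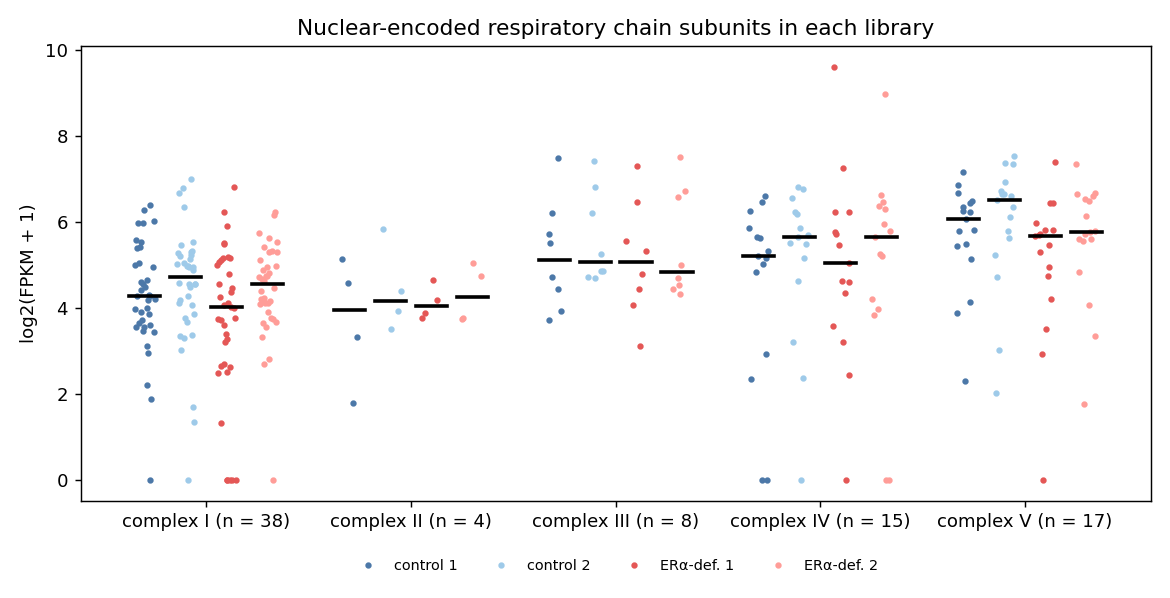
Level of each subunit in each library as log2(FPKM + 1), grouped by complex, with 1 point per gene and a bar at the median; n is the number of genes. Complex V has the highest medians in every library, and the high points of complex IV in the deficient libraries are Cox6a2.

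Complex I, the NADH dehydrogenase, had a median log2 fold change of -0.37 over its 38 members, with a median level of 18.4 and 25.6 FPKM in controls 1 and 2 and 15.1 and 22.4 FPKM in deficient 1 and 2. Without its members listed at 0 in any library the median was -0.17. With control 1, control 2, deficient 1 and deficient 2 left out in turn it was -0.58, -0.23, -0.11 and -0.54. For 3 members the groups did not overlap with higher values and for 10 with lower values (7.89% and 26.3%, against 23.2% and 25.7% of all tested genes). The 7 core subunits, which carry the flavin and the iron-sulfur clusters, had a median log2 fold change of -0.38, and for each of them the groups overlapped. In the flavin-containing entry module, Ndufv1 had 3.59 and 9.41 FPKM in controls 1 and 2 and 11.2 and 8.97 FPKM in deficient 1 and 2. Its partner Ndufv2 had 14.1 and 31.5 FPKM, then 15.7 and 16.4 FPKM. Ndufs1, the largest subunit of the module, had 11.2 and 17.1 FPKM, then 8.18 and 12.7 FPKM, and its exons overlap those of Ino80dos by 489 bases. In each of the 3 the value of control 2 exceeded that of control 1. The ubiquinone-reducing module was no more separated. Ndufs3 had 18.7 and 16.4 FPKM in the controls and 8.69 and 17.6 FPKM in deficient 1 and 2, and its exons overlap those of Kbtbd4 by 88 bases. Ndufs7 had 9.77 and 22.6 FPKM, then 5.44 and 17.1 FPKM, and Ndufs8 had 11.6 and 38.9 FPKM, then 12.6 and 41.8 FPKM. In these 3 genes deficient 2 was above deficient 1, and in the last 2 the second library of each group was the higher one. The 7 log2 fold changes ran from -0.56 (Ndufs7) to 0.68 (Ndufv1), with no adjusted p under 0.567 in limma.

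The accessory subunits of complex I, which surround the core and are needed to assemble and hold it, included the members with the clearest separation. Ndufa5 (chr6:24518662-24527690), of the peripheral arm, had 41.3 and 37.5 FPKM in controls 1 and 2 and 15.3 and 21.0 FPKM in deficient 1 and 2. The groups did not overlap, and its log2 fold change was -1.09 ± 0.33 (SE, n = 2 and 2; adjusted p = 0.228 in limma). Ndufb9, of the membrane arm, had 29.8 and 38.5 FPKM in the controls and 9.58 and 20.1 FPKM in deficient 1 and 2 (log2 fold change -1.22 ± 0.45). Ndufab1, the mitochondrial acyl carrier protein that is also a subunit, had 18.5 and 21.3 FPKM, then 5.14 and 11.5 FPKM (-1.25 ± 0.47), and was singled out after its values were seen, as was Ndufb11. Ndufb11 had 41.4 and 45.3 FPKM, then 26.4 and 23.8 FPKM (-0.77 ± 0.30), with 117 exon bases shared with Rbm10 on the opposite strand. Both libraries of the deficient label were below both controls in each of these. Ndufv3, a small accessory subunit of the flavin module, also had no overlap, with 83.0 and 109 FPKM in the controls and 74.0 and 38.1 FPKM in deficient 1 and 2.

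Other accessory subunits differed in the opposite direction. Ndufa8 (chr2:36036324-36049338), an intermembrane-space subunit with disulfide-forming cysteines, had 10.04 and 12.6 FPKM in controls 1 and 2 and 19.6 and 30.1 FPKM in deficient 1 and 2. Its groups did not overlap (log2 fold change 1.04 ± 0.39, adjusted p = 0.288 in limma). Ndufa7, of the peripheral arm, had 21.5 and 8.81 FPKM, then 35.1 and 28.7 FPKM (1.14 ± 0.49). The third complex I member without overlap in this direction was Ndufb3, of the membrane arm, with 13.5 and 30.3 FPKM in the controls and 34.8 and 38.5 FPKM in deficient 1 and 2. It was named after its values were seen. The 9 peripheral accessory members had a median log2 fold change of -0.13 and the 19 membrane accessory members -0.17. Ndufa11, which carries the NRF1 letters, had a low level of 2.69 and 2.25 FPKM in the controls and 1.5 and 6.04 FPKM in deficient 1 and 2, and was named for those letters after its values were seen.

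Several complex I members had values listed at 0, and their fold changes turn on those values. Ndufa3 (chr7:3617347-3620165), a small membrane-arm subunit, had 76.7 and 80.5 FPKM in controls 1 and 2, was listed at 0 in deficient 1 and had 45.2 FPKM in deficient 2. Its log2 fold change was -3.55 ± 1.68 (adjusted p = 0.377 in limma), -0.79 without deficient 1 and -6.31 without deficient 2. Ndufc1 had 15.0 and 11.8 FPKM in the controls, was listed at 0 in deficient 1 and had 14.0 FPKM in deficient 2. Ndufb2 had 6.74 and 7.07 FPKM, was listed at 0 in deficient 1 and had 16.9 FPKM in deficient 2. All 3 zeros fell in deficient 1, the library of lowest estimated depth. Ndufs5 was listed at 0 in control 2 and deficient 1, against 10.8 FPKM in control 1 and 24.5 FPKM in deficient 2. It shares 319 bases with BC002163, which had 15.6, 15.96 and 16.9 FPKM in the first 3 libraries and was listed at 0 in deficient 2, so the split between them is uncertain. Ndufa4, now known as a component of cytochrome c oxidase, had 61.9 and 127 FPKM in the controls and 112 and 73.5 FPKM in deficient 1 and 2, with overlap. Its hypoxia-induced relative Ndufa4l2 was listed at 0 except in control 2 (1.56 FPKM) and was not tested.

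Complex II, succinate dehydrogenase, which also works in the tricarboxylic acid cycle, had a median log2 fold change of -0.0001 over its 4 members, which was 0.47 without control 2. Sdha, the flavoprotein that oxidises succinate, had 34.0 and 19.9 FPKM in controls 1 and 2 and 12.5 and 25.6 FPKM in deficient 1 and 2. Sdhb, the iron-sulfur subunit, had 22.7 and 56.1 FPKM, then 24.2 and 31.8 FPKM. Sdhc (chr1:171129157-171150640), a membrane anchor that binds ubiquinone, had 2.47 and 10.4 FPKM, then 13.7 and 12.3 FPKM. Its groups did not overlap (log2 fold change 1.16 ± 0.64, adjusted p = 0.437 in limma). Sdhd, the other anchor, had 9.02 and 14.2 FPKM, then 17.3 and 12.7 FPKM, with overlap. The anchors' and the catalytic subunits' fold changes thus lay on opposite sides of 0, with SEs of 0.41 to 0.64, and that of Sdhb turned to 0.28 when 1 library was left out.

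Complex III, the cytochrome bc1 complex, showed little separation, with a median fold change of -0.17 (log2). Of its 8 members, 1 was without overlap in each direction (12.5%, against 23.2% higher and 25.7% lower of all tested genes). The median was -0.25, -0.0029, 0.14 and -0.37 with control 1, control 2, deficient 1 and deficient 2 left out in turn. Uqcrfs1, the Rieske iron-sulfur protein, had 12.2 and 25.5 FPKM in controls 1 and 2 and 7.69 and 20.7 FPKM in deficient 1 and 2. The core proteins gave similar ranges. Uqcrc1 had 20.8 and 28.2 FPKM, then 15.7 and 24.9 FPKM, and Uqcrc2 had 25.2 and 24.8 FPKM, then 26.6 and 19.1 FPKM, with 504 exon bases shared with Pdzd9. Uqcrh, the hinge protein for cytochrome c, was the complex's most abundant transcript per length, with 177 and 169 FPKM, then 157 and 181 FPKM. Its log2 fold change was -0.04 ± 0.25, with a sign that turned under median-ratio scaling (0.03). Uqcr10 had 72.7 and 72.6 FPKM in the controls and 86.7 and 104 FPKM in deficient 1 and 2 (0.38 ± 0.27, adjusted p = 0.542 in limma). Uqcrq, which helps bind ubiquinone, had 44.6 and 28.1 FPKM, then 20.7 and 22.3 FPKM (-0.70 ± 0.36, adjusted p = 0.418 in limma). These 2 were the members without overlap, and Uqcr10 shares 191 bases with 4930481A15Rik. Uqcr11 had 14.1 and 37.0 FPKM, then 39.3 and 30.9 FPKM, with overlap.

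Complex IV, cytochrome c oxidase, held the member with the largest difference, Cox6a2. The median log2 fold change of its 15 members was -0.29, and -0.12, 0.049 and -0.55 without control 2, deficient 1 and deficient 2 in turn. Cox6a2 (NCBI gene 12862; GRCm38 chr7:128205435-128206366) encodes the form of subunit VIa known from heart and skeletal muscle. It had 6.59 and 71.5 FPKM in controls 1 and 2 and 780.2 and 503 FPKM in deficient 1 and 2, or about 3.0, 30.9, 254 and 182 estimated fragments. Both deficient libraries were far above both controls, and control 2 was itself well above control 1. Group means were 39.0 ± 45.9 FPKM (SD, n = 2) and 641.5 ± 196 FPKM (SD, n = 2), a ratio of 16.4. The log2 fold change was 4.74 ± 1.02 (SE; adjusted p = 0.152 in limma), and 3.11 without control 1 against 6.37 without control 2. With voom weights it was 4.76 with an adjusted p of 0.00992 in limma, a setting that also changed the values and the filter. Over all alternatives the adjusted p ran from 0.00519 (scaling to T cell genes) to 0.552 (without control 1). It made up 57.8% and 44.5% of the complex IV sum in deficient 1 and 2. Without it these sums were 584 and 703 FPKM in the controls and 569 and 626 FPKM in deficient 1 and 2.

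Of the transcripts near Cox6a2, 4931431B13Rik, Itgad and Itgax had the same order of libraries or nearly so, and 9130023H24Rik did not. The long noncoding RNA 4931431B13Rik (chr7:128192050-128203328), 2107 bases away on the same strand, had 35.5 and 356 FPKM in controls 1 and 2 and 3256 and 2565 FPKM in deficient 1 and 2. Its log2 fold change was 4.66 (adjusted p = 0.154 in limma). Itgad (chr7:128173933-128205504), an integrin α chain of macrophages, shares 70 exon bases with Cox6a2 on the opposite strand. It had 1.07 and 9.28 FPKM, then 31.7 and 46.6 FPKM (3.10, adjusted p = 0.181 in limma). Itgax, the CD11c gene (chr7:128129526-128150657), had 1.06 and 23.8 FPKM, then 48.9 and 56.9 FPKM (2.91, adjusted p = 0.304 in limma). 9130023H24Rik, 28071 bases from Cox6a2 on the same strand, had 37.4 and 21.3 FPKM in the controls and 29.3 and 21.9 FPKM in deficient 1 and 2. In Cox6a2, 4931431B13Rik, Itgad and Itgax, control 1 was the lowest library. Control 2 lay between it and the deficient libraries, the order also seen in the macrophage marker sum. The part of myeloid RNA or of overlapping transcripts in the Cox6a2 values was not tested. The widely expressed partner isoform Cox6a1 did not share the pattern, with 48.3 and 74.5 FPKM in the controls and 23.7 and 81.7 FPKM in deficient 1 and 2.

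**Figure D4:**
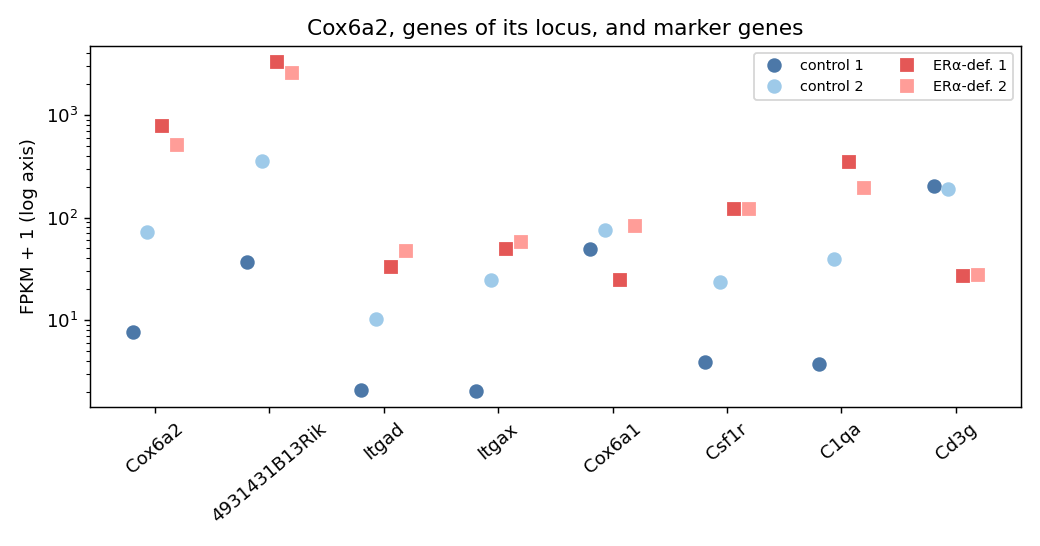
FPKM + 1 on a log axis in each library for Cox6a2, 3 genes of its neighbourhood, the isoform Cox6a1, 2 macrophage genes (Csf1r, C1qa) and the T cell gene Cd3g. Control 1 is lowest and control 2 intermediate for Cox6a2, the 3 neighbourhood genes shown and the macrophage genes, while Cd3g is higher in both controls.

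Of the other 14 members of complex IV, 1 was higher without overlap, Cox7b, and 2 were lower, Cox8a and Cox6c. With Cox6a2 this made 13.3% of the 15 members in each direction, against 23.2% higher and 25.7% lower of all tested genes. Cox4i1, the regulatory subunit that binds ATP, had 95.4 and 93.2 FPKM in controls 1 and 2 and 51.4 and 97.6 FPKM in deficient 1 and 2. Cox5a had 35.8 and 50.7 FPKM, then 23.4 and 60.5 FPKM, and Cox5b had 56.7 and 111 FPKM, then 53.8 and 77.3 FPKM. Deficient 1 was the lowest library for each of these 3, and each had overlap. Cox8a (chr19:7215158-7217616), the widely expressed form of the smallest subunit, had 38.8 and 49.5 FPKM in the controls and 19.3 and 17.3 FPKM in deficient 1 and 2. There was no overlap, with a log2 fold change of -1.22 ± 0.32 (adjusted p = 0.190 in limma). Cox6c had 48.9 and 57.3 FPKM, then 32.0 and 35.9 FPKM (-0.63 ± 0.30), also without overlap, and its exons overlap those of Vps13b by 250 bases. Cox7b had 34.6 and 44.1 FPKM, then 74.1 and 49.5 FPKM (0.62 ± 0.34), without overlap in the opposite direction.

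Among the paired isoforms other than Cox6a1 and Cox6a2, values of a muscle or testis form varied between libraries of 1 group. Cox7a1, the muscle form, had 27.7 and 4.15 FPKM in controls 1 and 2 and 11.01 and 14.8 FPKM in deficient 1 and 2. Cox7a2, the form of most tissues, had 31.4 and 35.0 FPKM, then 8.21 and 36.9 FPKM, and Cox7a2l had 75.6 and 44.5 FPKM, then 73.8 and 54.7 FPKM. In each of these isoforms the groups overlapped. Cox6b1 had 87.3 and 107 FPKM, then 151 and 86.6 FPKM. Its testis form Cox6b2 had 8.18 FPKM in control 2 and 4.44 FPKM in deficient 1 and was listed at 0 in the other 2. Cox8b, the muscle form, had 4.07 FPKM in control 1 and was listed at 0 elsewhere. The Cox6b2 and Cox8b values are all under the level of 3 fragments on 500 bases. Cox7c was listed at 0 in control 1 and had 23.8, 43.1 and 13.3 FPKM in control 2, deficient 1 and deficient 2. It shares 315 bases at 99.4% identity with Gm10012, which stood at 4432 to 5583 FPKM, so its log2 fold change of 2.34 ± 1.51 is uncertain.

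Complex V had the highest median level of the 5 complexes and the highest share of members without overlap in the lower direction. Its median level was 66.4 and 89.6 FPKM in controls 1 and 2 and 50.1 and 53.7 FPKM in deficient 1 and 2. The median log2 fold change was -0.31, and 12 of 17 members had a lower mean in the deficient libraries (70.6%, against 53.6% of all tested genes). In 8 of 17 the groups did not overlap with lower values (47.1%, against 25.7% of all tested genes), and in 0 with higher values (against 23.2%). Without Atp5s and Atp5sl it was 7 of 15 (46.7%). Without control 1 the median was -0.67 and without deficient 2 it was -0.75, while it was -0.37 without control 2 and -0.22 without deficient 1. At an unadjusted p under 0.05 in limma, 5 of 17 members were lower and 0 higher (against 6.8% and 9.1% of all tested genes), and 0 passed adjustment.

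Of the catalytic head, Atp5b (chr10:128083307-128090388), the β subunit that holds the active sites, had 116 and 163 FPKM in controls 1 and 2 and 55.4 and 91.8 FPKM in deficient 1 and 2. The groups did not overlap (log2 fold change -0.93 ± 0.37, adjusted p = 0.308 in limma). Atp5a1, the α subunit that forms the head with it, had 55.1 and 99.5 FPKM, then 55.4 and 69.6 FPKM, with overlap. Its log2 fold change was -0.25 ± 0.38, and the difference between α and β subunits was not tested. Atp5c1, the γ subunit of the rotating stalk, had 54.3 and 80.5 FPKM, then 42.9 and 53.9 FPKM (-0.45 ± 0.34). Atp5d, the δ subunit of the stalk, had 42.6 and 36.4 FPKM, then 17.6 and 27.6 FPKM (-0.81 ± 0.36), and its exons overlap those of Cbarp by 68 bases. Both stalk subunits were lower without overlap, though in Atp5c1 control 1 and deficient 2 were nearly equal.

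The membrane ring that the protons turn is built of copies of 1 protein, subunit c, encoded by 3 genes that differ in their import sequences. Atp5g2 (chr15:102662868-102671047) had 102 and 89.6 FPKM in controls 1 and 2 and 38.6 and 46.2 FPKM in deficient 1 and 2. Again the groups did not overlap (log2 fold change -1.16 ± 0.29, adjusted p = 0.175 in limma). Atp5g1 had 16.7 and 25.3 FPKM, then 10.3 and 9.26 FPKM (-0.999 ± 0.38), without overlap. It shares stretches of 101 to 134 bases at 95% identity or more with 8 other genes of the table. Atp5g3 had 34.4 and 68.1 FPKM, then 50.9 and 47.9 FPKM (0.03 ± 0.40), with overlap. The difference between the 3 genes was not tested.

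In the peripheral stalk and the membrane part, Atp5j (chr16:84827871-84835857), coupling factor 6, had 86.4 and 164 FPKM in controls 1 and 2 and 50.1 and 51.7 FPKM in deficient 1 and 2. The groups did not overlap (log2 fold change -1.21 ± 0.38, adjusted p = 0.236 in limma). Its exons overlap 397 bases of Gabpa, whose values were 14.5, 14.6, 11.5 and 12.8 FPKM in the same order. Atp5j2, subunit f of the membrane part, had 73.7 and 99.8 FPKM, then 29.9 and 53.7 FPKM (-1.08 ± 0.39), without overlap. Other subunits of these parts differed little. Atp5h, subunit d of the stalk, had 142 and 184 FPKM, then 168 and 161 FPKM (0.02 ± 0.27), and Atp5o, which joins stalk and head, had 44.1 and 48.3 FPKM, then 61.4 and 47.9 FPKM (0.23 ± 0.30). Atp5k, subunit e, which also carries the NRF1 letters, had 88.3 and 120.4 FPKM, then 86.0 and 88.3 FPKM (-0.24 ± 0.29). It was named for those letters after its values were seen. Atp5s had 3.89 and 3.06 FPKM, was listed at 0 in deficient 1 and had 2.43 FPKM in deficient 2.

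**Figure D5:**
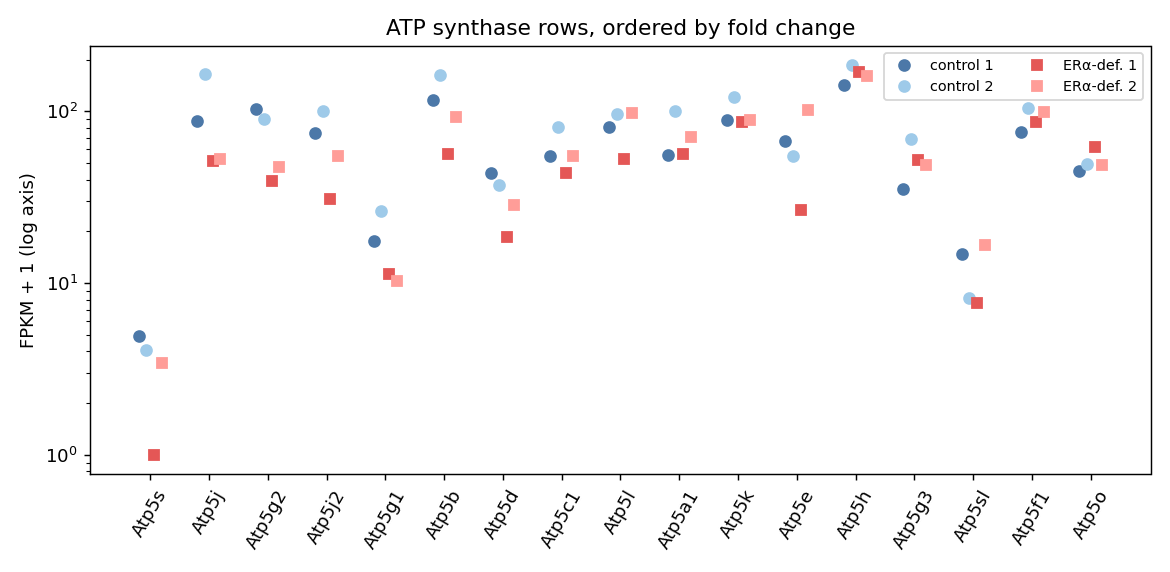
FPKM + 1 on a log axis for the 17 complex V rows in each library, ordered by log2 fold change from the lowest at the left; circles are controls and squares the deficient libraries. In 8 genes both squares lie below both circles, while Atp5h, Atp5g3, Atp5f1 and Atp5o at the right overlap.

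Genes around the chain gave 0 calls in every list in limma, where 7 of all 12896 tested genes were called. Of 45 assembly factors in the table, 41 were tested. Of the 45, 7 did not overlap with higher and 11 with lower values (15.6% and 24.4%, against 23.2% and 25.7% of all tested genes). Here and for the members, shares without overlap are over all genes of a list, tested or not. Over all genes of the table they were 20.5% higher and 22.1% lower. The assembly factors' median log2 fold change was -0.13. At an unadjusted p under 0.05, 0 of the 41 tested were higher and 6 lower, where all tested genes gave 9.1% and 6.8%. Taco1, a translational activator for a mitochondrially encoded subunit of complex IV, had 6.43 and 10.1 FPKM in controls 1 and 2 and was listed at 0 in both deficient libraries (adjusted p = 0.124 in limma). Ndufaf6, which acts in complex I assembly, had 4.04 and 2.83 FPKM and was likewise listed at 0 in both. No upper limit is given for these zeros, and deficient 1 and 2 had the lowest estimated depths, 509000 and 567000 fragments. Of the 18 electron carriers, ubiquinone enzymes and remaining parts of complexes III and V, 3 did not overlap with higher and 2 with lower values (16.7% and 11.1%, against 23.2% and 25.7% of all tested genes), with a median of 0.16. Coq6, a ubiquinone synthesis enzyme, had 8.10 and 3.78 FPKM in the controls and 1.25 FPKM in deficient 1 and was listed at 0 in deficient 2. Gpd2, which feeds electrons from glycerol 3-phosphate to ubiquinone, had 2.23 and 3.13 FPKM, then 5.50 and 6.17 FPKM.

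Among 17 tricarboxylic acid cycle genes, 5 did not overlap with higher and 4 with lower values (29.4% and 23.5%, against 23.2% and 25.7% of all tested genes), with a median of -0.11. Idh2, the NADP-dependent isocitrate dehydrogenase, had 6.71 and 9.67 FPKM in controls 1 and 2 and 14.0 and 25.2 FPKM in deficient 1 and 2 (log2 fold change 1.13, adjusted p = 0.309 in limma). Pdha1, of the pyruvate dehydrogenase complex, had 34.8 and 37.0 FPKM, then 51.4 and 66.5 FPKM. Of the 17 regulators of mitochondrial gene expression, 5 did not overlap in each direction (29.4%, against 23.2% higher and 25.7% lower of all tested genes), with a median of -0.09. Nrf1, whose product binds the palindrome, had 12.8 and 11.8 FPKM, then 6.42 and 2.48 FPKM (-1.39 ± 0.51, adjusted p = 0.285 in limma). Polg2, the accessory subunit of the mitochondrial DNA polymerase, had 8.19 and 1.05 FPKM, then 15.4 and 18.9 FPKM (2.06 ± 0.75).

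The 77 mitochondrial ribosomal protein genes gave a median of -0.14 on the log2 scale, with 9 higher and 19 lower without overlap (11.7% and 24.7%, against 23.2% and 25.7% of all tested genes). Mrps14 had 19.0 and 11.5 FPKM in controls 1 and 2, was listed at 0 in deficient 1 and had 2.73 FPKM in deficient 2. Mrps27 had 7.78 and 4.89 FPKM, then 1.08 and 0.97 FPKM. The 24 genes of mitochondrial import and cristae had a median of -0.41, with 2 higher and 10 lower without overlap (8.33% and 41.7%, against 23.2% and 25.7% of all tested genes). Timm13, a chaperone of the intermembrane space, had 13.1 and 7.46 FPKM, then 3.30 and 2.97 FPKM, and Timm17a, a part of the import channel, had 12.8 and 18.5 FPKM, then 4.46 and 8.01 FPKM. In each of these 4 genes both deficient libraries were below both controls.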

How the data were processed

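The authors deposited 1 table of FPKM values for 16230 genes. Per the submitters' processing notes the tools were HISAT, Bowtie2 and RSEM, with no version given, and the build was mm10. RSEM splits fragments shared by similar transcripts by estimate, so a value of 0 is written as listed at 0. Genes with a mean of at least 1 FPKM over the 4 libraries (12896) were tested with limma 3.58.1 (R 4.3.3) on log2(FPKM + 1). The model held group alone, with an empirical Bayes trend, two-sided tests and Benjamini-Hochberg adjustment over all tested genes. Fold changes are deficient minus control on that scale, where changes of low genes come out too small. No two-sided exact permutation p with 2 against 2 libraries can be below 0.33, so none is given per gene. The procedure was tested on simulated data.

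Depth was estimated from 10348 genes with 1 transcript of over 800 bases, where 77.8% to 79.6% of low values were whole fragments to within 0.2, compared with 39.2% to 40.5% for displaced steps. Shared sequence was searched with blastn 2.17.0. The members and lists were chosen with earlier results of these data known. Members named are the catalytic or central subunits, the paired isoforms, those listed at 0 in any library and, in each complex, the 3 smallest unadjusted p, the 2 highest means and the largest change in each direction. Of these, 1 is not reported here singly, though it stays in every fit and list. In the other lists the 2 genes with the smallest unadjusted p are named. Alternatives changed the filter, pseudocount, trend, scaling, weights, members and libraries.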

Additional observations from a re-analysis of the deposited data

How the results depend on the processing

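Depth was an estimated 509000 to 708000 fragments per library, so a value listed at 0 on a transcript of 500 bases allows up to 9.21 to 12.8 FPKM, for counting error only. The count of all tested genes called higher (2) was 0 with no filter, a mean FPKM of at least 5, a pseudocount of 0.1, no trend, the replicate block and each library left out, 1 with quantile normalization, 8854 with scaling to T cell genes and 139 with voom weights. The count called lower (5) was 0 with no filter, a pseudocount of 0.1, no trend, the replicate block and each library left out, 33 with scaling to T cell genes and 50 with voom weights. Members called higher (0) were 64 with scaling to T cell genes and 1 with voom weights. The lowest adjusted p of any member ranged from 0.00478 to 0.552 over the settings.

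Relative to the shift of all genes under scaling to T cell genes, the median log2 fold change was -0.015 over all members, 0.25 in complex II, 0.16 in complex III and 0.063 in complex V. High genes move more than low ones under it, so these medians do not measure changes relative to other genes. Under that scaling 72 members had no overlap with higher values and 0 with lower values, in complex V 16 and 0. Of the 13329 genes tested under it, 11092 were higher and 102 lower without overlap. Without the members that share sequence or exons the median of complex III was -0.28. Leaving out each library in turn, where the lone library of a group is assumed to vary like the other group, gave medians of -0.57 to -0.019 over all members, -0.58 to -0.11 in complex I, -0.042 to 0.47 in complex II, -0.37 to 0.14 in complex III, -0.55 to 0.049 in complex IV and -0.75 to -0.22 in complex V. The counts without overlap, which 3 libraries pass more easily, were then 12 to 24 higher and 27 to 43 lower over all members, and 0 to 5 higher and 8 to 13 lower in complex V. Over the 12710 to 12872 genes tested in these settings, 4315 to 4823 were higher and 4663 to 5521 lower without overlap.

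Reversed signs were -0.016 (Atp5g3), -0.054 (Atp5h) and -0.0496 (Ndufa4) with quantile normalization, and 0.026 (Uqcrh) with median-ratio scaling. Relative to the shift under scaling to T cell genes they were 0.11 (Atp5a1), 0.16 (Cox5a), 0.0699 (Cox5b), -0.29 (Ndufs5), 0.00558 (Uqcrc1), 0.15 (Uqcrc2) and 0.35 (Uqcrh). The cause of the reversals under quantile normalization and median-ratio scaling was not tested. Scaling to T cell genes moves high genes more than low ones on log2(FPKM + 1). The signs reversed relative to its shift thus do not measure changes relative to other genes. Of the 55 named members, 26 changed sign when 1 library was left out. Their log2 fold changes then ran from -0.67 to 0.17 (Atp5a1), -0.45 to 0.51 (Atp5g3), -0.17 to 0.21 (Atp5h), -0.86 to 0.049 (Cox4i1), -0.84 to 0.50 (Cox5a), -0.77 to 0.18 (Cox5b), -1.30 to 0.44 (Cox6a1), -0.16 to 0.63 (Cox6b1), -1.98 to 1.22 (Cox6b2), -1.06 to 1.42 (Cox7a1), -1.89 to 0.15 (Cox7a2), -0.25 to 0.50 (Cox7a2l), -0.48 to 0.54 (Ndufa4), -2.98 to 1.18 (Ndufb2), -3.83 to 0.073 (Ndufc1), -0.93 to 0.0037 (Ndufs3), -1.78 to 2.89 (Ndufs5), -1.31 to 0.18 (Ndufs7), -0.73 to 0.93 (Ndufs8), -0.93 to 0.18 (Ndufv2), -0.99 to 0.28 (Sdhb), -0.085 to 1.25 (Uqcr11), -0.60 to 0.039 (Uqcrc1), -0.37 to 0.084 (Uqcrc2), -1.10 to 0.22 (Uqcrfs1) and -0.14 to 0.067 (Uqcrh).

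The labels do not tie replicate numbers to an animal or day. Deviations from the group means of equally numbered libraries had a correlation of -0.0016 across genes. With 2 libraries per group, this value cannot show whether equal numbers share an animal or day. With the replicate number as a block, 0 genes and 0 members were called, and the members' median was -0.29.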
